A study of Mus musculus with 10 samples.

Results

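The genes described here are 38 mouse genes of the interferon response and of antigen presentation by MHC class I, taken by name from a table of 55335 genes measured by RNA-seq in hearts of male mice. The list was set by gene function and not by a measured value, though with earlier results of these data known. All 38 symbols were found in the GENCODE vM21 annotation. The 10 heart samples came from wild-type male offspring. The 5 control samples were from offspring of dams given the vehicle, phosphate-buffered saline (PBS), in pregnancy. The 5 PAMH samples were from offspring of dams given anti-Müllerian hormone (AMH). Such exposure before birth is known as a model of the polycystic ovary syndrome, and all samples here are from males. The labels used here give no age and tie no sample to an animal, dam or litter. Nothing says that the 5 samples of a group came from separate animals. The p-values therefore set the group difference only against the variation among these samples, technical variation included. Where hearts are counted below, samples are meant. Values are FPKM, fragment counts scaled to transcript length and to the mapped fragments of the library, so levels of different genes can be compared per length. The tissue label was checked against 5 cardiomyocyte markers, whose summed level ran from 4880 to 8839 FPKM, and Myh6, the adult cardiac myosin, was listed at 1198 to 1861 FPKM.

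Type I interferons bind the receptor chains IFNAR1 and IFNAR2, whose kinases TYK2 and JAK1 start the signal. A complex that holds STAT2 and IRF9 then binds interferon-stimulated response elements (ISREs) before the start of antiviral genes. Interferon gamma signals through IFNGR1 and IFNGR2, JAK1 and JAK2, acts at gamma-activated sites (GAS) and raises IRF1, guanylate-binding proteins and the class I machinery. That machinery cuts proteins in the immunoproteasome, moves the peptides through the TAP transporter and loads them on class I heavy chains held by beta-2 microglobulin. In an uninfected heart such genes are known to be kept at a low basal level, with class I chains on nearly all nucleated cells.

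The response element can be read in several of the listed genes. RefSeq promoter sequences (build GRCm38.p6) were at hand for 29 of the 38 genes, with 34 starts. The ISRE core GAAANNGAAA, where N is any base, was sought on both strands in the 250 bases before each start, and so was the GAS core TTCNNNGAA. The ISRE core was present in 11 of these 34 promoters (32.4%), against 2.98% of all 32851 promoters. The GAS core was present in 6 of 34 (17.6%), against 7.02% of all promoters. The 11 genes with the ISRE core were B2m, Bst2, Gbp2, Gbp3, Gbp7, Ifit1, Ifit3, Isg15, Oas1a, Rsad2 and Stat2. The following 5 stretches are shown because they belong to the genes with the most negative changes (Rsad2 and Isg15), to a pair from the Ifit cluster, and to B2m, the class I gene with the core. They are written 5′ to 3′ on the strand of the gene, and capitals mark the ISRE core or its reverse complement; overlapping matches run together.
Rsad2 (chr12:26456543-26456592, minus strand): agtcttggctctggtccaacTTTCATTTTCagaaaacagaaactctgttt
Isg15 (chr4:156200855-156200916, minus strand): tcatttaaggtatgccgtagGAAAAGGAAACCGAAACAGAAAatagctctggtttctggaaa
Ifit1 (chr19:34640765-34640833, plus strand): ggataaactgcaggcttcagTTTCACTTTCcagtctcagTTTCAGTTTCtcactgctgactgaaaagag
Ifit3 (chr19:34583353-34583436, plus strand): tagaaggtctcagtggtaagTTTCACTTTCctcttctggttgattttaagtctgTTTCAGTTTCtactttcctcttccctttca
B2m (chr2:122147528-122147577, plus strand): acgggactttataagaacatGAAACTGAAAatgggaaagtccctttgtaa
The Isg15 stretch held 3 overlapping matches, Ifit1 and Ifit3 each held 2, and Rsad2 and B2m each held 1. The nearest match lay 56 bases before the start in Isg15, 75 in Ifit1, 110 in Rsad2, 112 in Ifit3 and 129 in B2m. A match is only a run of letters and was not tested as a site.

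No listed gene passed the test between PAMH and control hearts. A gene was tested where its mean over the 10 samples was at least 1 FPKM, which 29 of the 38 did, and it passed where the adjusted p was under 0.05 (limma on log2(FPKM + 1), Benjamini-Hochberg adjustment over 9439 tested genes). Over all tested genes 4.95% passed as higher (467 genes) and 1.24% as lower (117 genes). That split was 218 higher and 212 lower under median ratio scaling, and 234 and 246 with quantile normalization. At an unadjusted p under 0.05 there were 3 of the 29 listed genes, namely Rsad2 and Isg15 with negative changes and Psmb10 with a positive change, against 24% of all tested genes. The values of the groups overlapped for each of the 29 genes. Over all tested genes the PAMH values lay wholly above the control values in 6.74% and wholly below in 1.71%. The log2 fold changes of the 29 genes ran from -0.54 to 0.37 with a median of -0.09, and 21 were negative. Over all tested genes the median was 0.07 and 32.7% were negative. The median of all genes depended on the filter. With no filter it was 0.0032, beside -0.09 for the 38 listed genes. With a filter at a mean of 5 FPKM it was 0.11, beside -0.04 for the 7 listed genes left. Under 4 other scalings the median of the 29 genes lay between -0.15 and -0.06, with 19 to 25 negative, beside a median of all genes between -0.0036 and 0.11. Of the 23 tested interferon response genes 19 had negative values (median -0.11), and 4 of the 6 tested class I presentation genes had positive values (median 0.09). Control replicate 4 was the highest control in 16 of the 23 interferon response genes, a count not made over all tested genes. Without that sample 17 of the 29 genes were negative (median -0.06), and without control replicate 2 there were 23 (median -0.13). Genes within a sample are not independent, so these counts are descriptions only.

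**Figure D1:**
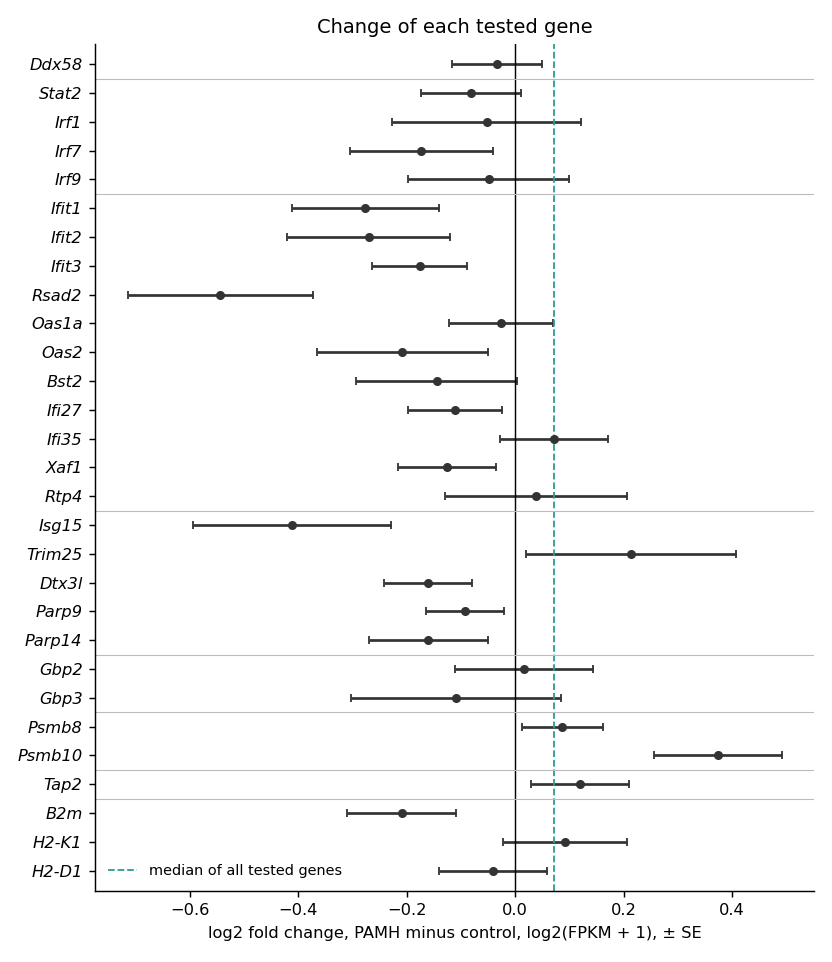
Log2 fold change (PAMH minus control, on the log2(FPKM + 1) scale) of each of the 29 tested genes, as a point with its standard error from limma, ordered by role; the dashed line is the median of all 9439 tested genes, 0.07. Rsad2 and Isg15 lie farthest to the left at -0.54 and -0.41, and Psmb10 farthest to the right at 0.37.

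The helicases that sense viral RNA were low in all hearts. Ddx58, which encodes RIG-I (chromosome 4, 40203773 to 40239828), was the 1 sensor above the filter, with 1.02, 0.919, 1.11, 1.42 and 1.34 FPKM in control replicates 1 to 5 and 1.09, 1.19, 1.12, 1.20 and 0.922 FPKM in PAMH replicates 1 to 5. All PAMH values lay within the control range, and control replicates 4 and 5 lay above every PAMH value. The log2 fold change was -0.03 (SE 0.08, limma adjusted p = 0.841). Ifih1, which encodes MDA5, averaged 0.519 ± 0.127 FPKM in control and 0.432 ± 0.0916 FPKM in PAMH hearts (SD, n = 5 each). Dhx58, which encodes the regulator LGP2, averaged 0.393 ± 0.0911 and 0.227 ± 0.0969 FPKM. Both were below the filter and were not tested.

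The 4 transcription factor genes had log2 fold changes between -0.17 and -0.05, and none passed the test. Irf7, the factor that amplifies interferon production (chromosome 7, 141262706 to 141266481), had 1.59, 1.72, 1.06, 2.12 and 1.68 FPKM in control and 1.42, 1.184, 1.26, 1.99 and 0.866 FPKM in PAMH hearts. Replicate 4 was the highest of its group in both groups, and the log2 fold change was -0.17 (SE 0.13, limma adjusted p = 0.454). Irf1, a target of interferon gamma that drives class I genes, had 2.46 to 3.12 FPKM in control hearts and 2.67 to 3.52 FPKM in PAMH hearts other than replicate 4, which had 1.09 FPKM. Its log2 fold change of -0.05 became 0.14 without PAMH replicate 4, without passing (limma adjusted p = 0.342). Stat2 and Irf9, partners in the ISRE-binding complex, had log2 fold changes of -0.08 and -0.05. Irf9 shares its strand and part of its span with Rnf31 (mean 1.82 FPKM), and Irf7 overlaps Phrf1 (mean 1.07 FPKM) on the opposite strand. The strand cannot separate the reads of Irf9 and Rnf31, and without a stated strand setting those of Irf7 and Phrf1 cannot be told apart either.

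Rsad2, which encodes the antiviral enzyme viperin (chromosome 12, 26442746 to 26456452), had the most negative log2 fold change of the tested genes in the list. Its control values were 2.17, 2.09, 1.82, 3.52 and 2.96 FPKM and its PAMH values were 1.35, 1.46, 2.30, 0.683 and 1.34 FPKM. All PAMH samples except replicate 3 lay below the lowest control. The log2 fold change was -0.54 (SE 0.17, unadjusted p = 0.00751, adjusted p = 0.0772 by limma). Without PAMH replicate 3 it passed at a log2 fold change of -0.66 (limma adjusted p = 0.0217) and the groups did not overlap, as was then the case for 2.15% of all tested genes in the lower direction. It also passed without PAMH replicates 3 and 4 (adjusted p = 0.0369 by limma) and, narrowly, after the dependence on transcript length and GC content had been removed from each sample (adjusted p = 0.0492 by limma). These were its only 3 passes in 22 other settings, where its limma adjusted p reached 0.230. Of all tested genes 1126 passed without PAMH replicate 3, 1160 without PAMH replicates 3 and 4 and 883 with the trend removed, against 584 with all samples.

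The Ifit genes encode proteins that bind foreign RNA, and the 3 listed members had log2 fold changes from -0.28 to -0.18, none past the test. They lie in a cluster on chromosome 19. Ifit1 (34640871 to 34650009) had 1.49, 0.974, 1.06, 1.94 and 1.75 FPKM in control and 1.29, 0.707, 1.41, 0.783 and 0.868 FPKM in PAMH hearts. Control replicates 4 and 5 were the highest of all samples, and PAMH replicates 1 and 3 lay within the control range. Its log2 fold change was -0.28 (SE 0.14, limma adjusted p = 0.237). Ifit2 followed the same order at its ends, with 2.22 FPKM in control replicate 4 and 0.732 FPKM in PAMH replicate 2. Its log2 fold change was -0.27 (SE 0.15, limma adjusted p = 0.296). Ifit3 was the most abundant of them at 3.04 ± 0.303 and 2.59 ± 0.372 FPKM (SD, n = 5 each; log2 fold change -0.18, limma adjusted p = 0.245). Near-identical copies of these genes exist in the cluster, and the sources used here do not say how reads with several matches were divided.

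The oligoadenylate synthetase genes encode enzymes whose products activate RNA decay by RNase L. Oas2 had 1.498, 0.892, 0.889, 1.76 and 1.74 FPKM in control hearts and 0.907, 0.771, 1.88, 0.915 and 0.757 FPKM in PAMH hearts. PAMH replicate 3 was the highest of the 10 samples, and the other PAMH values lay between 0.757 and 0.915 FPKM. Its log2 fold change was -0.21 (SE 0.16, limma adjusted p = 0.450). Oas1a had 1.66 ± 0.306 and 1.604 ± 0.231 FPKM (SD, n = 5 each), with a log2 fold change of -0.03. Oasl2 averaged 0.898 and 0.848 FPKM and was below the filter.

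The other effectors ranged widely in level, and none of those tested passed between the groups. Bst2, which encodes tetherin, was the most abundant of the 14 listed effectors at 11.3 ± 1.77 FPKM in control and 10.3 ± 2.83 FPKM in PAMH hearts (SD, n = 5 each; log2 fold change -0.14, limma adjusted p = 0.590). Its highest values were 15.1 FPKM in PAMH replicate 4 and 14.3 FPKM in control replicate 4. Ifi27 averaged 6.67 and 6.10 FPKM (log2 fold change -0.11), and Ifi35 averaged 5.95 and 6.31 FPKM (log2 fold change 0.07, which was -0.03 with quantile normalization). Xaf1, an interferon-induced partner of the apoptosis inhibitor XIAP, averaged 1.13 and 0.947 FPKM (log2 fold change -0.13). Rtp4 averaged 1.45 and 1.48 FPKM and varied most in control hearts, from 0.896 to 2.25 FPKM. Ifi44 was below the filter at 0.193 to 0.277 FPKM in control hearts other than replicate 4, which had 0.759 FPKM, and at 0.0322 to 0.257 FPKM in PAMH hearts. Mx2, a dynamin-like antiviral GTPase, reached at most 0.286 FPKM and was listed at 0 in PAMH replicate 5.

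**Figure D2:**
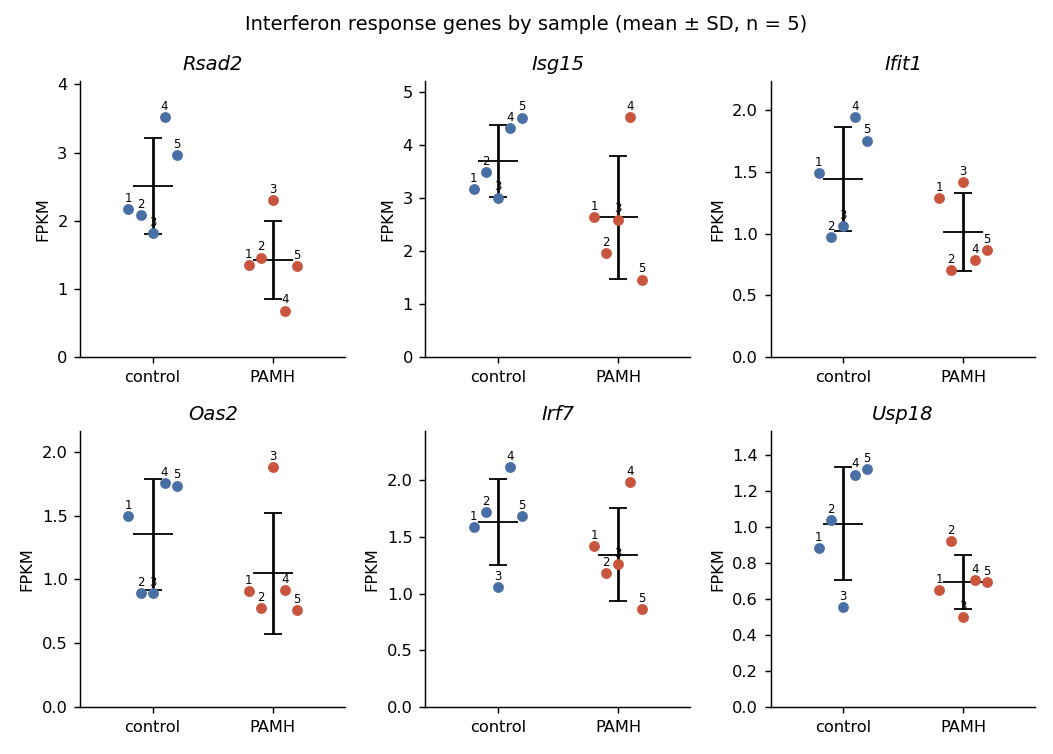
FPKM of 6 interferon response genes in each sample, with replicate numbers beside the points (blue, control; red, PAMH) and bars for the mean and SD of 5 samples; each axis starts at 0. For Rsad2 only PAMH replicate 3 (2.30 FPKM) and for Isg15 only PAMH replicate 4 (4.52 FPKM) reach the control values, and the groups overlap in the other 4 panels as well.

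Isg15, a ubiquitin-like protein that is attached to other proteins during an interferon response (chromosome 4, 156199424 to 156200818), was lower in 4 of 5 PAMH hearts than in any control. The control values were 3.16, 3.49, 3.01, 4.32 and 4.51 FPKM and the PAMH values 2.64, 1.96, 2.59, 4.52 and 1.46 FPKM. PAMH replicate 4 was the highest of the 10 samples and PAMH replicate 5 the lowest. The log2 fold change was -0.41 (SE 0.18, unadjusted p = 0.0430, adjusted p = 0.193 by limma). It passed without PAMH replicate 4 (log2 fold change -0.58, adjusted p = 0.0278 by limma), without PAMH replicates 3 and 4 (-0.64, limma adjusted p = 0.0214) and with sample weights (-0.51, limma adjusted p = 0.0400). Isg15 had only these 3 passes in 22 other settings, and its limma adjusted p reached 0.443. Of all tested genes 680 passed without PAMH replicate 4, 1160 without PAMH replicates 3 and 4 and 1214 with sample weights, against 584 with all samples unweighted. Without PAMH replicate 4 the groups of Isg15 and Bst2 did not overlap, beside 2.36% of all tested genes lower in this way.

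PAMH replicates 4 and 3, and to a lesser degree control replicate 2, differed from the rest of their group along transcript GC content. Across 9435 tested genes with a known transcript, the deviation of PAMH replicate 4 from the mean of the other PAMH samples had a Pearson r of 0.35 with GC content and -0.23 with log length. Among the 29 listed genes these were 0.40 and -0.48. For PAMH replicate 3 the r with GC content was -0.32 across all genes and -0.52 across the listed ones. Control replicate 2 had 0.30 and 0.34, and control replicate 4 had -0.24 and -0.37. With log length, PAMH replicate 2 had an r of 0.26 across all genes and 0.34 across the listed ones. PAMH replicate 3 had 0.10 and 0.40 with log length. Genes within a sample are not independent, and these are descriptions only. Isg15 and Bst2, with transcripts of 756 and 792 bases, had the largest positive deviations in PAMH replicate 4 (0.82 and 0.69 on the log2 scale). The next shortest of the 29, B2m and Ifi27 (860 and 977 bases), had 0.15 and -0.19. Irf1 and Gbp3, with a GC content of 52.8% and 45.9%, had the largest negative deviations, -0.95 each. The part of this in the single values was not tested.

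The enzymes that attach and remove ISG15, ubiquitin or ADP-ribose had log2 fold changes from -0.16 to 0.21 apart from Isg15, and none passed. Usp18, which strips ISG15 from proteins and restrains the receptor, averaged 1.02 ± 0.317 and 0.695 ± 0.151 FPKM (SD, n = 5 each) and was below the filter. Its values were 0.885, 1.04, 0.557, 1.29 and 1.32 FPKM in control and 0.649, 0.922, 0.501, 0.706 and 0.697 FPKM in PAMH hearts, and the groups overlapped through control replicate 3 and PAMH replicate 2. Dtx3l and Parp9, partners in a ubiquitin ligase complex, had log2 fold changes of -0.16 and -0.09 (limma adjusted p = 0.251 and 0.461). Their annotated spans overlap at one end on opposite strands, and without a stated strand setting reads there cannot be assigned. Dtx3l was narrow in PAMH hearts, from 1.46 to 1.67 FPKM, and 1.48 to 2.25 FPKM in control hearts. Parp14 had a log2 fold change of -0.16. Trim25, the ubiquitin ligase that activates RIG-I, had a positive value of 0.21 (SE 0.19, limma adjusted p = 0.536), and its control values ran from 1.74 to 5.001 FPKM.

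The guanylate-binding proteins are GTPases induced by interferon gamma, and the 3 listed genes lie together on chromosome 3. Gbp2 had 4.23, 3.86, 4.61, 5.52 and 3.89 FPKM in control and 6.37, 3.87, 4.67, 3.98 and 3.75 FPKM in PAMH hearts, so that 3 of 5 PAMH values were inside the control range, 1 above it and 1 below (log2 fold change 0.02, limma adjusted p = 0.952). Gbp3 averaged 1.38 and 1.27 FPKM and Gbp7 averaged 1.04 and 0.792 FPKM. Both had their lowest value in PAMH replicate 4, at 0.290 and 0.147 FPKM. The log2 fold change of Gbp3, -0.11, was 0.08 without PAMH replicate 4, and Gbp7 was below the filter.

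Among the class I genes, those of the immunoproteasome had positive values. Psmb10, the immunoproteasome subunit that replaces Psmb7 (chromosome 8, 105935735 to 105938444), had the largest positive change of the list. It had 6.94, 8.46, 7.31, 7.79 and 7.66 FPKM in control and 10.4, 8.21, 9.23, 9.59 and 14.2 FPKM in PAMH hearts. All PAMH values except that of replicate 2 exceeded the highest control, and PAMH replicate 5 was the highest. The log2 fold change was 0.37 (SE 0.12, unadjusted p = 0.00784, adjusted p = 0.0786 by limma), and it passed with sample weights (adjusted p = 0.0325 by limma). That was its only pass in 23 other settings, where its limma adjusted p reached 0.245. With sample weights 1214 of all tested genes passed. Psmb8, the counterpart of Psmb5, averaged 1.66 ± 0.179 and 1.83 ± 0.177 FPKM (SD, n = 5 each; log2 fold change 0.09, limma adjusted p = 0.511). Psmb9, the counterpart of Psmb6, ranged from 0.445 to 1.004 FPKM in control and 0.536 to 1.13 FPKM in PAMH hearts and was below the filter.

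Each immunoproteasome subunit takes the place of a constitutive one. Their ratio within a sample does not depend on the scaling of that sample, apart from the 0.1 FPKM added for the test. Psmb10 stood at 21.0%, 26.8%, 22.8%, 22.8% and 24.2% of Psmb7 in control hearts and at 30.5%, 24.5%, 28.5%, 29.0% and 41.6% in PAMH hearts. The mean rose from 23.5% ± 2.17 to 30.8% ± 6.42 (SD, n = 5 each; difference of mean log2 ratios 0.37, exact 2-sided permutation p = 0.0159 over 252 splits, adjusted p = 0.0476 over 3 ratios). This ratio was higher than every control in 4 of 5 PAMH hearts, and its adjusted p rose above 0.05 when any of 8 samples was left out (up to 0.119). Psmb10 and Psmb7 differ in transcript GC content (56.5% and 40.8%) and length (1311 and 2849 bases). The ratio was not tested with the trend on GC content and length removed. Psmb8 stood at 2.40% ± 0.373 of Psmb5 in control and 2.40% ± 0.313 in PAMH hearts (exact permutation p = 0.976). Psmb9 stood at 1.97% ± 0.515 of Psmb6 in control and 1.92% ± 0.577 in PAMH hearts (exact permutation p = 0.881). The constitutive subunits thus far exceeded the inducible ones per length in all hearts. They themselves had log2 fold changes of 0.13 (Psmb5), 0.18 (Psmb6) and 0.04 (Psmb7), none of which passed in limma, although Psmb6 did without PAMH replicate 3.

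**Figure D3:**
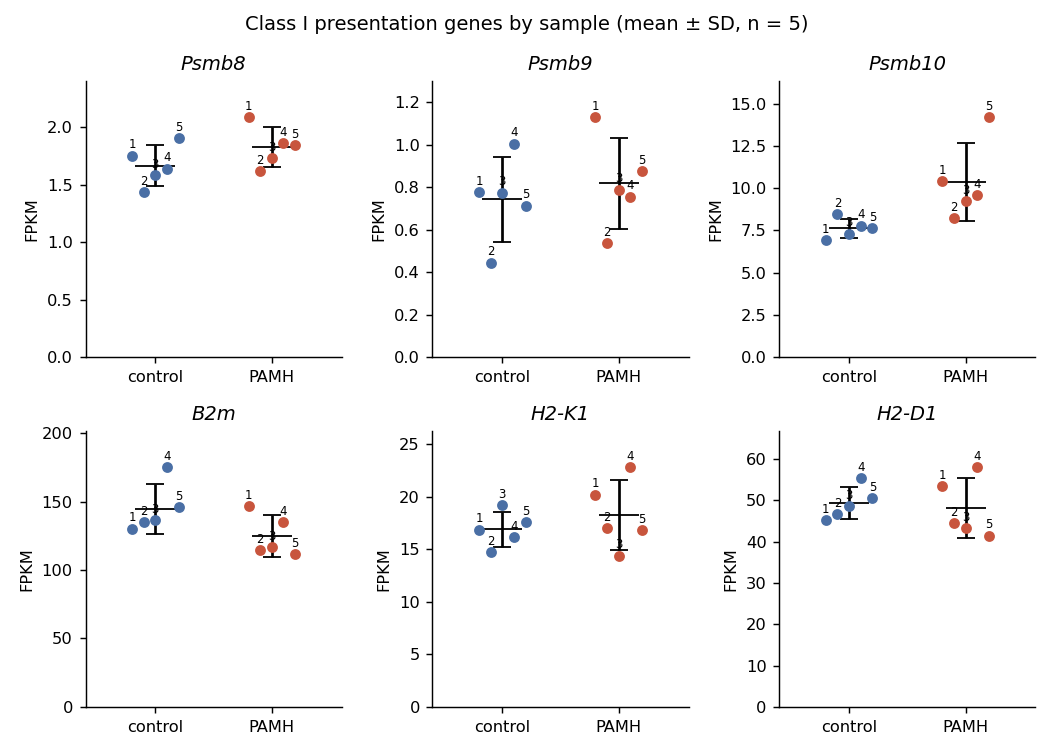
FPKM of the 3 immunoproteasome genes and the 3 class I chain genes in each sample, with replicate numbers beside the points (blue, control; red, PAMH) and bars for the mean and SD of 5 samples; each axis starts at 0. For Psmb10 only PAMH replicate 2 (8.21 FPKM) lies within the control range. For B2m and H2-D1 PAMH replicates 2, 3 and 5 lie below every control, and in the other 3 panels the groups overlap.

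The TAP transporter genes lie beside Psmb8 and Psmb9 on chromosome 17. Tap2 had 2.56 to 3.07 FPKM in control hearts and 2.57 to 3.96 FPKM in PAMH hearts, with the highest value in PAMH replicate 1 (log2 fold change 0.12, limma adjusted p = 0.446). Tap1 averaged 0.748 and 0.770 FPKM and was below the filter. Tap1 and Psmb9 overlap on opposite strands, and their reads there cannot be separated. Among the 4 pairs of tested genes of the list that lie within 50 kb of each other, deviations from the group means over the 10 samples had Pearson's r from -0.15 (Dtx3l with Parp9) to 0.57 (Gbp3 with Gbp2). Spearman's rho ran from -0.14 to 0.44, and without the 2 samples farthest from the median of the first gene r ran from -0.19 to 0.68. None passed an exact permutation test within groups (lowest adjusted p 0.329 for r and 0.594 for rho, over 4 pairs).

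B2m, the light chain shared by all class I molecules (chromosome 2, 122147686 to 122153083), was the most abundant gene of the list. Its values were 130.4, 135, 137, 175 and 146 FPKM in control and 147, 114, 117, 135 and 112 FPKM in PAMH hearts. PAMH replicates 2, 3 and 5 lay below every control and replicates 1 and 4 within the control range. Its log2 fold change was -0.21 (SE 0.10, limma adjusted p = 0.229). H2-D1, a heavy chain gene, averaged 49.3 ± 3.92 and 48.2 ± 7.24 FPKM (SD, n = 5 each; log2 fold change -0.04, limma adjusted p = 0.833). Its PAMH replicates 2, 3 and 5 (44.4, 43.3 and 41.4 FPKM) also lay below every control, the lowest of which was 45.3 FPKM, while PAMH replicate 4 was the highest sample at 58.1 FPKM. H2-K1 averaged 16.9 ± 1.66 and 18.3 ± 3.30 FPKM (log2 fold change 0.09, limma adjusted p = 0.664), and its change was -0.04 with quantile normalization. PAMH replicates 1 and 4 had the highest H2-K1 values, 20.2 and 22.9 FPKM. H2-K1 and H2-D1 are close paralogs in a polymorphic gene family, so reads may have been exchanged between them and their separate levels are uncertain.

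Single samples stood apart across many of the listed genes. Control replicate 4 had the highest value of all 10 samples in 16 of the 38 genes and the lowest in none. PAMH replicates 4 and 5 had the lowest value in 10 genes each, and replicate 4 also the highest in 6. These counts were not made over all tested genes, so a shift of the whole sample cannot be told apart from one of these genes. With each gene placed in SD from its own mean, the 23 tested interferon response genes averaged 1.26 in control replicate 4 and 0.61 in control replicate 5. The other controls lay between -0.29 and -0.05 and the PAMH samples between -0.60 and 0.23. The 6 tested class I presentation genes had another order, with the highest means in PAMH replicates 1 (1.23) and 4 (0.84). After group means were removed, Ifit2, Ifit1, Xaf1, Trim25 and Oas2 were most like the mean profile of the 21 tested sensors, factors, effectors and modifiers (Pearson r from 0.81 to 0.92 over 10 samples, each gene being part of that mean). Parp9 had an r of -0.02. Of the genes outside the lists, Btnl9, Trim56, Ubxn7, Gm9892, Hnrnpdl and Papln were most like this profile (r from 0.91 to 0.94 over 10 samples). They were picked as the highest of all tested genes outside the lists, and r therefore has no test. Between the groups Hnrnpdl passed as higher (adjusted p = 0.0461 by limma) and Papln as lower (adjusted p = 0.0457 by limma), and the others did not pass. Gm9892 is annotated as a processed pseudogene.

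**Figure D4:**
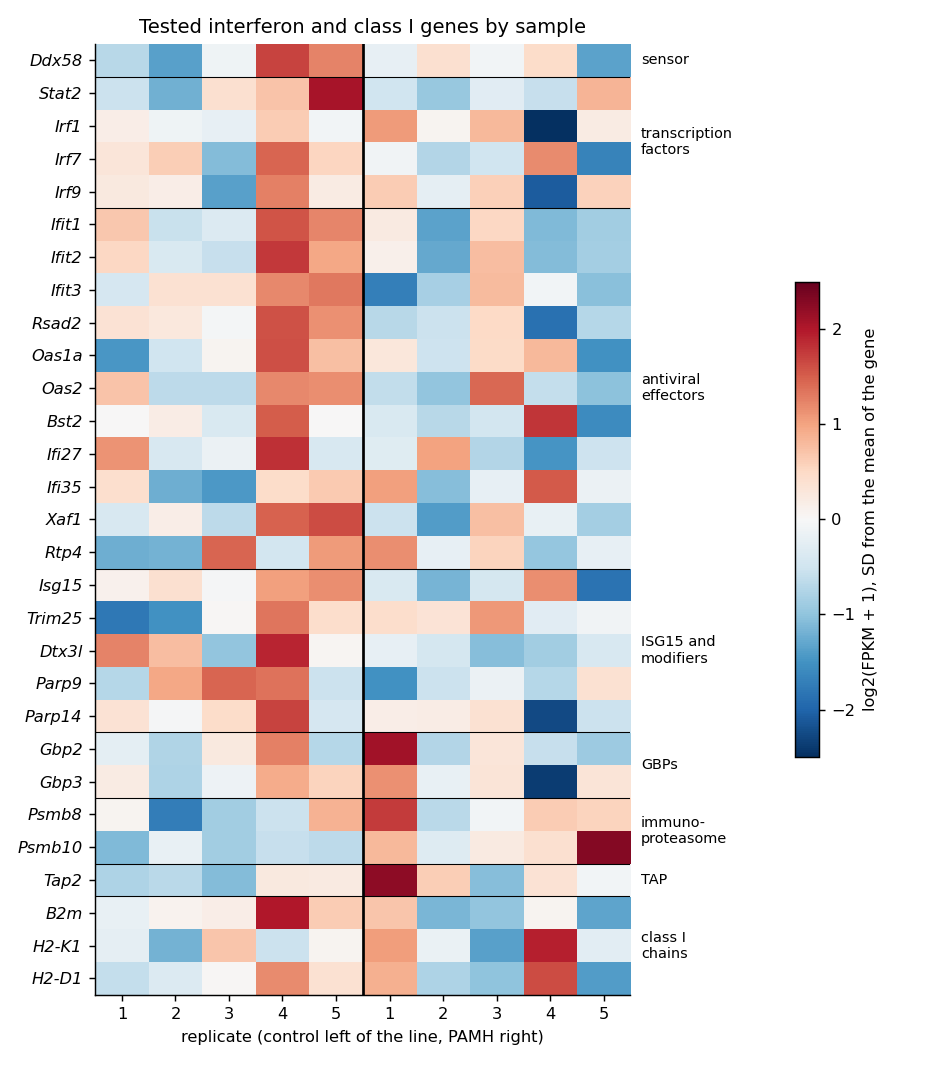
Level of the 29 tested genes (rows, by role) in the 10 samples (columns), as log2(FPKM + 1) in SD from the mean of each gene, with control samples left of the line and PAMH samples right. Control replicate 4 is red in most interferon rows, and PAMH replicate 4 has dark blue Irf1, Irf9, Parp14 and Gbp3 beside red Bst2, Isg15 and H2-K1.

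The rest of the pathway was examined in 63 other interferon pathway genes. Of these 38 were tested, none passed in either direction (limma), and 7 had an unadjusted p under 0.05 (4 positive, 3 negative), beside 24% of all tested genes. Their log2 fold changes had a median of 0.00, with 19 positive and 19 negative. Over all tested genes 67.3% were positive and 32.7% negative, a split that depends on the scaling. The median of all tested genes was 0.07, and -0.0036 with median ratio scaling. The interferon genes Ifnb1, Ifna4, Ifng and Ifnl3 were listed at 0 in all 10 samples. Ifngr2, the signalling chain of the interferon gamma receptor, had 47.8, 46.8, 46.4, 45.4 and 45.8 FPKM in control and 53.0, 50.4, 53.7, 53.3 and 55.8 FPKM in PAMH hearts. The groups did not overlap, and the log2 fold change was 0.19 (SE 0.06, adjusted p = 0.0647 by limma). It passed in 5 of 23 other settings, and was 0.04 with quantile normalization. Jak1, the kinase used by both receptor types, had 14.3, 14.4, 13.8, 14.2 and 15.9 FPKM in control and 13.4, 12.6, 12.2, 11.7 and 10.9 FPKM in PAMH hearts. Here too the groups did not overlap, and PAMH was lower (log2 fold change -0.24, SE 0.07, adjusted p = 0.0670 by limma), with passes in 3 of 23 other settings. Ifngr2 and Jak1 were the only tested genes among the 63 whose groups did not overlap, 1 in each direction, where 6.74% of all tested genes lay wholly higher and 1.71% wholly lower.

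The remaining signalling genes overlapped between the groups. Ifngr1, the ligand-binding chain, averaged 8.27 ± 1.55 and 6.81 ± 1.603 FPKM (SD, n = 5 each; log2 fold change -0.25, limma adjusted p = 0.310). Ifnar1 and Ifnar2 had log2 fold changes of 0.12 and 0.07. Jak2, Tyk2 and Irf3 had log2 fold changes of 0.02, 0.03 and 0.17. Socs1, the feedback inhibitor of the kinases, was below the filter at 0.0516 to 0.126 FPKM in control and 0.117 to 0.492 FPKM in PAMH hearts. Among the other induced genes, 15 of 23 tested had negative changes, beside 32.7% of all tested genes. Ifitm3, which blocks viral entry, averaged 49.3 and 58.2 FPKM (log2 fold change 0.23, limma adjusted p = 0.104).

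**Figure D5:**
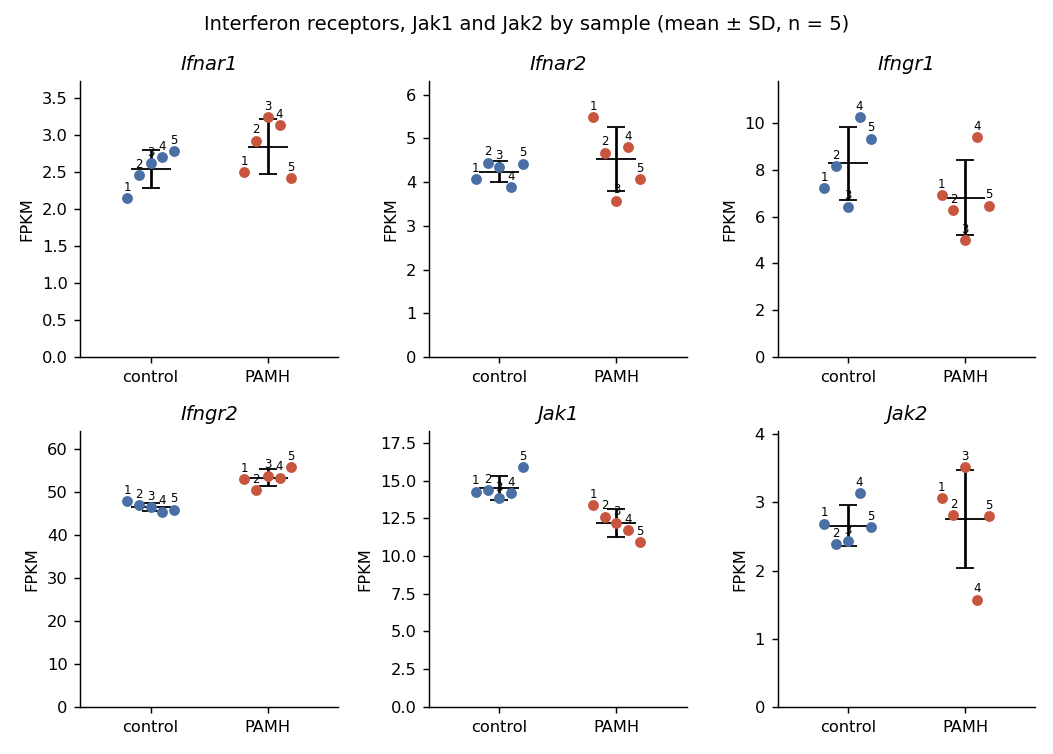
FPKM of 4 interferon receptor chains, Jak1 and Jak2 in each sample, with replicate numbers beside the points (blue, control; red, PAMH) and bars for the mean and SD of 5 samples; each axis starts at 0. The groups are apart for Ifngr2 (PAMH higher) and Jak1 (PAMH lower) and overlap in the other 4 panels.

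Of 19 other class I presentation genes 17 were tested and none passed (limma), with 2 at an unadjusted p under 0.05 (all tested genes, 24%). Their changes were positive in 10 and negative in 7, beside 67.3% and 32.7% of all tested genes. Tapbp, which encodes the peptide editor tapasin, averaged 7.28 ± 0.583 and 9.22 ± 2.44 FPKM (SD, n = 5 each; log2 fold change 0.27, limma adjusted p = 0.256). The proteasome activator genes Psme1 and Psme2 had log2 fold changes of -0.08 and -0.05, calreticulin (Calr) 0.15 and the class Ib chain H2-T23 0.02. Nlrc5, the transactivator of class I genes, was below the filter at 0.346 and 0.237 FPKM.

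Markers of cells that carry these genes were read in the same samples. In bulk tissue, fewer cells of a type and less RNA per cell cannot be told apart. The 8 macrophage markers summed to 98.2 to 113 FPKM in control and 113 to 139 FPKM in PAMH hearts, and 1 of the 7 tested passed, Cd68, as higher (adjusted p = 0.0187 by limma). Most of that sum came from C1qa, C1qb and C1qc, whose log2 fold changes of 0.20 to 0.25 did not pass (limma adjusted p = 0.142 to 0.172). Adgre1 and Csf1r had -0.06 and -0.04, and Cx3cr1, below the filter, averaged 0.555 and 0.293 FPKM. Of 3 markers of all leukocytes Coro1a was higher (adjusted p = 0.00808 by limma), Laptm5 did not pass (log2 fold change 0.05, limma adjusted p = 0.756), and Ptprc, which encodes CD45, was below the filter at 0.156 and 0.128 FPKM. The 6 endothelial markers summed to 69.5 to 85.9 and 62.9 to 78.6 FPKM with none past the test, and control replicate 4 had the highest sum. Sums over the markers of T cells, B cells and NK cells stayed at or under 0.743 FPKM in every sample. The red cell markers (4 globin genes and Alas2) summed to 863 FPKM in PAMH replicate 4 and to 97.3 to 437 FPKM in the others, where 437 FPKM was in control replicate 4. The part of these cells in the values above was not tested.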

How the data were processed

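The authors deposited a table of FPKM for 55335 Ensembl genes in 10 samples. Per the submitters' processing notes, the study used the build mm10, the aligner HISAT2 2.2.1, the trimmer Trimmomatic 0.38 and the counter HTSeq 0.13.5, among others; which step gave the FPKM is not given in the sources used here. Values with over 6 decimals were found in 97.3% of genes with several annotated transcripts and 0.612% of genes with 1, so gene values combine transcripts, whole reads could not be recovered and depth is unknown. FPKM summed to 654350 to 717453 per sample, and 16113 to 21097 genes were above 0. Symbols and coordinates (1-based, GRCm38) are from GENCODE vM21, which held 55154 of the identifiers. Groups came from the sample titles.

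Genes averaging 1 FPKM or more over the 10 samples were fitted on log2(FPKM + 1) with limma 3.58.1 in R 4.3.3 (group term, intensity trend, 2-sided, Benjamini-Hochberg). Such fold changes understate changes of low genes. The fit was tested on simulated data. Transcript length and GC content are those of the longest transcript. Ratios had 0.1 FPKM added to each value for the test. Figures and other values used Python 3.11.15 and matplotlib 3.10.9. Alternatives (pseudocount, filter, scaling, weights, replicate block, samples left out) are in the closing section; removal of the length and GC trend was chosen after seeing the data. The list, the other pathway genes and the tests were chosen with earlier results of these data known. The text names every listed gene, other pathway genes from a set panel, and the 6 outside genes most like the mean profile. One gene of the set panel is not reported here.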

Additional observations from a re-analysis of the deposited data

Results flagged for a closer look

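In 4 of 82 sets of 5 samples (38 genes and 3 ratios in 2 groups) a single sample lay far from the other 4, by Dixon's criterion (a gap over 0.71 of the range). For independent sets the criterion marks about 1 in 20 by design. The sets here share samples and are not independent, so the number found was not tested against that share. Oas2 in PAMH replicate 3 was 1.88 FPKM, while the 4 others of its group lay between 0.757 and 0.915 FPKM. Bst2 in control replicate 4 was 14.3 FPKM, with the remaining controls at 9.81 to 11.01 FPKM, and Bst2 in PAMH replicate 4 was 15.1 FPKM, with the remaining PAMH hearts at 7.64 to 9.77 FPKM. Ifi44 in control replicate 4 was 0.759 FPKM, with the remaining controls at 0.193 to 0.277 FPKM. The 2 samples with high Bst2 were also those with the highest sums of red cell markers, 437 and 863 FPKM; the part of blood in this was not tested.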

How the results depend on the processing

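Depth is unknown and limits genes near 1 FPKM most. Over 23 other settings of the fit the median log2 fold change of the listed genes stayed between -0.15 and -0.04. Of all tested genes 584 passed; the count was 264 with no filter, 1214 with sample weights, 883 with the length and GC trend removed (chosen after seeing the data), 360 without PAMH replicates 4 and 5, 1160 without PAMH replicates 3 and 4, and 278 to 1126 without single samples. The count of listed genes past the threshold, 0, became 2 with sample weights (Psmb10 and Isg15), 1 with the trend removed (Rsad2), 2 without PAMH replicates 3 and 4 (Rsad2 and Isg15), and 0 to 1 without single samples. Listed genes with groups apart went from 0 to 4, all lower, without PAMH replicates 3 and 4 (all tested genes, 3% lower and 18.2% higher), to 2, both lower, without PAMH replicates 4 and 5 (2.84% and 11.8%), and to 0 to 2 without single samples. The difference of log2 ratios of Psmb8 to Psmb5, -0.0039, was 0.0035 with no pseudocount and -0.0785 to 0.0647 without single samples; that of Psmb9 to Psmb6 was -0.21 to 0.0814; that of Psmb10 to Psmb7 was 0.26 to 0.45. The cause of each of these shifts was not tested.

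The replicate numbers are shared by both groups, but same-numbered samples did not deviate together (r from -0.20 to 0.16), and only replicate 1 matched its own number best. With the number as a replicate block 239 genes passed, 0 of them listed, and the Psmb10 to Psmb7 difference stayed at 0.37 with an adjusted p of 0.375 by an exact permutation test within pairs; 5 pairs cannot give a 2-sided p below 0.0625, so this test could not pass. Of 1030 log2 fold changes of single genes under these settings 956 kept direction and call, 16 passed newly and 58 changed sign, in 18 genes; no value that changed sign passed the threshold. With median ratio scaling the sign differed for Ifi35 (-0.0127), Rtp4 (-0.0206), Gbp2 (-0.0634), H2-K1 (-0.00126), Ifnar2 (-0.0145), Jak2 (-0.0519), Tyk2 (-0.0256), Psmb7 (-0.0554) and H2-T23 (-0.0572). With quantile normalization the sign differed for Ifi35 (-0.0319), Gbp2 (-0.0703), H2-K1 (-0.0402), Ifnar2 (-0.0189), Jak2 (-0.0317), Psmb5 (-0.00939), Psmb7 (-0.0846) and H2-T23 (-0.0670). With the same sum per sample the sign differed for Oas1a (0.00392) and H2-D1 (0.00536). With sample weights the sign differed for Irf1 (0.0810), Irf9 (0.0432), Gbp3 (0.00982), Tyk2 (-0.00318) and H2-T23 (-0.0197). With the length and GC trend removed the sign differed for H2-T23 (-0.00142). Without PAMH replicates 3 and 4 the sign differed for Irf1 (0.11), Irf9 (0.0590), Gbp3 (0.0909), Tyk2 (-0.00417), Psme2 (0.0201) and H2-T23 (-0.0310). Without PAMH replicates 4 and 5 the sign differed for Irf1 (0.17), Irf9 (0.0608), Gbp3 (0.0909), Tyk2 (-0.0120) and H2-T23 (-0.0202). Without single samples the log2 fold changes whose sign differed ran over these ranges: Ddx58 -0.0746 to 0.00892, Irf1 -0.14 to 0.14, Irf9 -0.14 to 0.0759, Oas1a -0.0814 to 0.0276, Rtp4 -0.0454 to 0.15, Gbp2 -0.0919 to 0.0859, Gbp3 -0.22 to 0.0817, H2-D1 -0.11 to 0.00839, Jak2 -0.0556 to 0.15, Psme1 -0.24 to 0.0599 and H2-T23 -0.0502 to 0.0637.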
